A study of Mus musculus with 28 samples.

Results

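The 35 genes described here are interferon-stimulated effectors outside the IFIT, OAS, Mx, GBP and Schlafen families, measured in mouse bone marrow-derived dendritic cells (BMDCs) with and without the interferon receptor IFNAR and the transcription factor RelB. They were chosen by name and looked up by symbol in both deposited sheets, where all 35 were found among 24995 named genes. All 35 also passed the filter on low values (at least 1 CPM in at least 3 of 28 libraries), as did 12972 genes in all. By role they comprise 8 RNA helicases and RNA-binding proteins (Ddx60, Helz2, Znfx1, Mov10, Zc3hav1, Adar, Pnpt1 and Tdrd7) and 6 members of the ADP-ribosyltransferase (PARP) family with a partner (Parp9, Dtx3l, Parp10, Parp11, Parp12 and Parp14). A further 4 encode nuclear body and chromatin proteins (Sp100, Pml, Daxx and Phf11d), 5 ubiquitin ligases (Trim21, Trim25, Trim30a, Trim34a and Rnf213), 6 membrane and secreted proteins (Bst2, Lgals3bp, Ms4a4c, Shisa5, Rtp4 and Tor3a) and 6 other cytosolic proteins (Ifi35, Nmi, Ifi44, Epsti1, Samd9l and Xaf1).

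The cells were C57BL/6 BMDCs grown from marrow with GM-CSF and IL-4, in 4 genotypes: the double knockout of both genes (labelled IFNARko;RelBko), the knockout of the type I interferon receptor (IFNARko), the RelB knockout (RelBko) and wild type (WT). Each genotype gave 7 libraries. These were an untreated control labelled 1 h, 3 libraries taken 1, 3 and 8 h into treatment with CpG DNA (0.1 µM), which TLR9 senses, and 3 at the same times with Poly(I:C) of high molecular weight, which mimics double-stranded RNA. For Poly(I:C) the labels disagree on the dose, with 10 ng/mL in titles but 10 µg/mL under treatment. No control is labelled 3 or 8 h, so every change at those times is set against a control labelled 1 h. With 1 library per group there were no replicates. In the fits, the double knockout and IFNARko libraries of a condition stood in as repeats of IFNAR null cells, and the RelBko and WT libraries as repeats of IFNAR intact cells. The labels do not say whether libraries came from separate cultures or mice, so p-values rest only on the spread within these samples. The fit also took out the mean gap between the genotypes of an IFNAR state. Each SE and p-value therefore reflects how that gap varied over the conditions, and leaves the mean gap itself out.

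Type I interferons bind IFNAR, which activates the kinases JAK1 and TYK2. These activate a complex that holds STAT2 and IRF9 and binds interferon-stimulated response elements (ISREs) before its target genes. Interferon gamma acts through another receptor and through GAS elements, and RelB is an NF-kB subunit that is prominent in dendritic cells. The genes described here are targets at the end of these pathways: they bind, edit or degrade viral RNA, modify viral or host proteins, hold budding virions at the membrane or amplify signalling.

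Depth ran from 3269933 reads in the IFNARko CpG 8 h library and 3814916 reads in the double knockout CpG 8 h library to 42227938 reads (WT, CpG 8 h), with a median of 8533450. Transcripts of both targeted genes were still counted. Ifnar1 in the double knockout was 0.463 to 0.802 of its RelBko level and in IFNARko 0.478 to 0.772 of its WT level. Relb was 0.613 to 0.851 of IFNARko in the double knockout and 0.675 to 0.998 of WT in RelBko, so these whole-gene values check the labels only weakly. Of 8 dendritic cell markers, 7 were over 1 CPM in every library and Cd209a was under 1 CPM in all. Of 6 plasmacytoid dendritic cell markers, Tcf4, Pacsin1 and Spib were over 1 CPM in every library, and 2 were under 1 CPM in all. Among the latter, the defining Siglech did not exceed 0.386 CPM. Xist was at 712.9 to 1042 CPM in the double knockout and 445 to 831.5 CPM in WT, but under 1 CPM in IFNARko and RelBko. The sum of 4 Y-linked genes was 221 to 263 CPM in IFNARko, 239 to 298 CPM in RelBko and under 1 CPM elsewhere. Each IFNAR state therefore holds both kinds of library, whereas every RelB comparison also sets these libraries against each other. In such bulk samples, fewer cells of a type and less RNA per cell cannot be told apart.

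Promoters differed among the 35 genes in whether they held an ISRE. In RefSeq windows of 300 bases (250 before and 50 after the start of a transcript, build GRCm38.p6), 30 of the 35 had an entry, and Parp9, Parp10, Parp14, Rtp4 and Tor3a are named only. The ISRE, searched on both strands as GAAA, any 2 bases and a second GAAA, was present in 8 of 30 genes (26.7%), against 373 of 9558 tested genes (3.90%). These were Bst2, Ddx60, Parp11, Shisa5, Tdrd7, Trim21, Trim30a and Trim34a. The GAS element, searched as TTCNNNGAA on both strands, was present in 5 of 30 (16.7%), against 8.46% of tested genes, and the kappaB consensus in 4 of 30 (13.3%), against 6.40%. A match is a run of letters and not a shown binding site. The following stretches before the start site, from RefSeq, have an ISRE in capitals, with its first base at 53 and 19 bases before the start of Ddx60, 44 before Parp11, 191 before an alternative start of Tdrd7, 36 before Trim30a, and 130 and 124 before Bst2. For Tdrd7 and Shisa5 the match lies in the window of a start inside the gene, and the window at the gene's first start holds none. The ISRE of Parp11 and that of Trim30a lie on the opposite strand and are printed as read on the gene's strand. The 2 matches of Bst2 overlap, and other motifs in that stretch are left in lower case. These 5 genes are shown because a match lies wholly before a start site. All 5 responded less at 8 h without IFNAR. Ddx60, Parp11, Tdrd7 and Trim30a also rose there after at least 1 stimulus, and Bst2 did not. Of the genes with an ISRE that are not shown, Shisa5 and Trim34a rose without IFNAR at Poly(I:C) 8 h, and Trim21 did not.
Ddx60 (chr8:61928004-61928086, plus strand): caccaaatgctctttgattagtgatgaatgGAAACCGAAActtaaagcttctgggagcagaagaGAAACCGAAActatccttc
Parp11 (chr6:127446766-127446835, plus strand): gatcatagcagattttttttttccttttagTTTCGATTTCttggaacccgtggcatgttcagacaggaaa
Tdrd7 (chr4:45972076-45972145, plus strand): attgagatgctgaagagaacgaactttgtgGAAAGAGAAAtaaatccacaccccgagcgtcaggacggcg
Trim30a (chr7:104465194-104465259, minus strand): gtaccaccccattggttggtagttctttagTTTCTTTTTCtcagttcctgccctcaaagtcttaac
Bst2 (chr8:71537557-71537632, minus strand): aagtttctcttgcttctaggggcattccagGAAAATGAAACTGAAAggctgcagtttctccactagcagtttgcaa
The stretches before Helz2 and Epsti1 hold no ISRE match, and are shown because these 2 genes kept the largest share of their induction in IFNARko cells. The capitals before Epsti1 mark its kappaB match, 154 bases before the start, and the stretch before Helz2 holds none of the 3 motifs. The other genes with a kappaB match were Bst2 (142 bases before the start, in lower case above), Rnf213 and Zc3hav1. Bst2 and Rnf213 had the lowest shares of induction in IFNARko cells by the mean of both stimuli, and for Zc3hav1 no share was taken.
Helz2 (chr2:181242028-181242197, minus strand): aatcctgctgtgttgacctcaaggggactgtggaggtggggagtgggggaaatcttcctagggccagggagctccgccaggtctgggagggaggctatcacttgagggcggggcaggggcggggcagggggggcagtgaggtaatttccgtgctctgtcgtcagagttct
Epsti1 (chr14:77904069-77904238, plus strand): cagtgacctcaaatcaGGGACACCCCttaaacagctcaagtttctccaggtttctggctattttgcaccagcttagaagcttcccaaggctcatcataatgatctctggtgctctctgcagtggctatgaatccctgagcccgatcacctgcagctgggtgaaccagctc

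At rest, in control cells, the genes were far apart in level. Per kilobase of exon in the WT control library, Bst2, or tetherin, which holds budding virions at the cell surface, stood at 115 CPM per kb, above 97.1% of tested genes. The secreted glycoprotein gene Lgals3bp was at 97.1 CPM per kb, Trim25, a ubiquitin ligase that activates the RNA sensor RIG-I, at 77.4, the endoplasmic reticulum membrane protein gene Shisa5 at 61.8 and Zc3hav1 (the zinc-finger antiviral protein ZAP, which binds CpG-rich viral RNA) at 39.0 CPM per kb. At the other end were Ifi44 at 0.374, the helicase gene Ddx60 at 1.11, the PHD finger gene Phf11d at 1.498 and Xaf1, which encodes a XIAP-associated factor, at 2.08 CPM per kb. Summed CPM of the 35 in control cells was 2573 in the double knockout, 3233 in IFNARko, 3089 in RelBko and 3070 in WT.

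Loss of IFNAR went with lower control levels of some members, while the share called higher was under that of all tested genes. Limma called 7 of 35 lower (7.34% of all tested genes were called lower) and 5 of 35 higher (background 21.3%) in IFNAR null than in IFNAR intact control cells. The median difference of the members was -0.04 on the log2(CPM + 1) scale, beside 0.14 for all tested genes. The lower ones were Rtp4, Ifi44, Ddx60, Phf11d, Bst2, Lgals3bp and Trim25. Rtp4, a chaperone of membrane receptors, was at 0.901 CPM in the double knockout and 4.57 CPM in IFNARko, against 14.3 CPM in RelBko and 12.5 CPM in WT. Its difference was -2.14 ± 0.19 (SE; limma adjusted p 1.59e-08), and the 2 IFNAR states did not overlap. Bst2 was at 47.4 and 74.2 CPM in the double knockout and IFNARko, against 95.4 and 104 CPM in RelBko and WT, a difference of -0.74 ± 0.10 (limma adjusted p 1.03e-05). The other differences were -0.95 ± 0.18 for Ddx60, -0.85 ± 0.20 for Phf11d, -0.56 ± 0.09 for Lgals3bp and -0.43 ± 0.12 for Trim25, again with no overlap between IFNAR states. For Phf11d the states were barely apart, at 1.502 and 5.34 CPM in the double knockout and IFNARko, against 5.62 and 6.74 CPM in RelBko and WT. Ifi44 is given in reads below, since it was near 0 without IFNAR.

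The 5 members called higher at rest were 4 genes of the PARP group and Trim21, which encodes a cytosolic antibody receptor. They are a smaller share of the 35 than the 21.3% called higher among all tested genes. Parp11, a mono-ADP-ribosyltransferase gene, was at 34.1 and 41.1 CPM in double knockout and IFNARko control cells, against 28.4 and 21.1 CPM in RelBko and WT (0.59 ± 0.11, limma adjusted p 0.000222). Trim21 was at 32.1 and 34.8 CPM without IFNAR and 24.2 and 20.8 CPM with it (0.56 ± 0.10). Parp9 (0.42 ± 0.09) and Dtx3l (0.32 ± 0.10), whose products act as a complex, and Parp14 (0.31 ± 0.11) followed. Parp14 overlapped between the states, at 135 and 225 CPM without IFNAR and 129.6 and 151 CPM with it. Parp9 and Dtx3l overlap in the genome (chr16:35938470-35972605 and chr16:35926511-35939151, GENCODE M21 on GRCm38), and the strand used in counting is not given in the sources used here, so reads of their shared stretch cannot be told apart. Scaling bore on this split: median-ratio scaling lowered the median of all genes by 0.14 and gave 3 higher and 9 lower, and quantile normalisation gave 4 and 10. Both sets of lower genes held the 7 named above. Of all 12972 tested genes, median-ratio scaling called 1366 higher and 1536 lower, and quantile normalisation 1538 and 1385, in place of 2759 and 952. Leaving out a genotype gave 3 higher without WT or without IFNARko and 8 without the double knockout, and 12 lower without IFNARko. Without IFNARko the Parp14 difference was -0.05 (limma adjusted p 0.816).

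**Figure D1:**
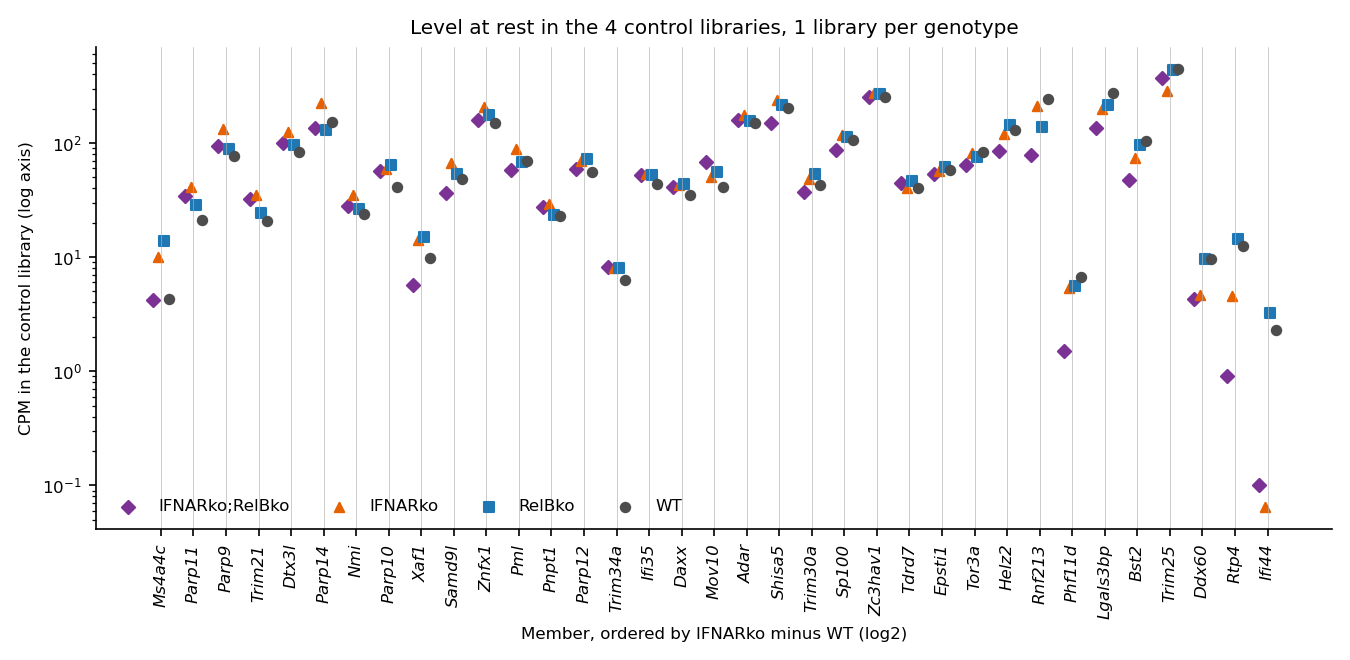
CPM of each of the 35 genes in the 4 control libraries on a log axis, 1 point per genotype, ordered by the IFNARko minus WT difference in log2(CPM + 1). Rtp4, Ddx60 and Ifi44 stand at the right, with both IFNAR null points under both IFNAR intact points, and Parp11 and Trim21 at the left have the reverse order. Ifi44 points under 1 CPM rest on 1 read each.

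With IFNAR intact most of the genes rose after both stimuli, from 3 h on. At 1 h limma called none of 35 after CpG (1 at an unadjusted p under 0.05) and none after Poly(I:C) (4 at an unadjusted p under 0.05), and voom also called 0. Of all tested genes 0.362% were called higher and 0.0463% lower at CpG 1 h, and 0.17% higher at Poly(I:C) 1 h. At 3 h 22 of 35 rose after CpG (background 12.6%) and 31 after Poly(I:C) (background 11.8% higher and 9.14% lower), and Trim25 fell after CpG (background 29.4%), a call lost without WT. At 8 h 34 of 35 rose after each stimulus, against 15.9% and 16.1% of all tested genes (37.9% were called lower after CpG), and the exception in both was Trim25. The median change was 0.42 at CpG 3 h, 1.61 at CpG 8 h, 1.08 at Poly(I:C) 3 h and 1.50 at Poly(I:C) 8 h, beside medians of all tested genes between -0.20 and 0.01. Both stimuli are set against the same control libraries.

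Without IFNAR far fewer of the genes were called. After CpG 6 rose and 7 fell at 3 h (background 8.91% and 21.7%), and 7 rose and 6 fell at 8 h (background 11.7% and 25.4%). After Poly(I:C) 4 rose and 0 fell at 3 h (background 4.09% and 1.79%), and 14 rose and 1 fell at 8 h (background 9.3% and 9.61%). At 1 h limma and voom called 0 after either stimulus, and 0 and 2 had an unadjusted p under 0.05 after CpG and Poly(I:C). These counts moved with the settings. Median-ratio scaling, which raised the median of all genes by 0.12 at CpG 3 h and 0.11 at CpG 8 h, gave 8 up and 2 down for CpG 3 h and 12 up and 3 down for CpG 8 h, and quantile normalisation 7 up and 4 down, and 10 up and 4 down. Over all tested genes the CpG 3 h counts went from 1156 up and 2818 down to 1706 and 1490 with median-ratio scaling. Those at CpG 8 h went from 1519 and 3295 to 2090 and 2111. With quantile normalisation they were 1520 and 1817 at 3 h, and 1992 and 2378 at 8 h. Leaving out the double knockout gave 3 up at CpG 8 h, 1 at Poly(I:C) 3 h and 4 at Poly(I:C) 8 h. Leaving out IFNARko gave 2 up at Poly(I:C) 3 h, and leaving out either of the 2 CpG 8 h libraries of lowest depth gave 7 up and 1 down (Trim25). The 7 falls at CpG 3 h were 2 without IFNARko and 4 without the double knockout, and the 6 falls at CpG 8 h were 3 and 2. Leaving out the IFNARko CpG 8 h library alone also gave 3 falls at CpG 8 h.

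The response itself was tested for a difference between IFNAR null and IFNAR intact cells. It was lower without IFNAR for 13 of 35 at CpG 3 h (0.609% of all tested genes), 33 at CpG 8 h (3.79%), 21 at Poly(I:C) 3 h (1.13%) and 31 at Poly(I:C) 8 h (2.01%), and higher for none (background at 8 h 6.04% after CpG and 1.8% after Poly(I:C)). At an unadjusted p under 0.05 no member differed at 1 h after either stimulus. The median difference was -0.51 and -1.60 at 3 and 8 h after CpG and -0.87 and -1.23 after Poly(I:C). The 13 at CpG 3 h became 7 without RelBko, 8 without IFNARko and 6 without the double knockout. Summed over the 35 genes, the level was 2573 to 3087 CPM over the 7 double knockout libraries and 3136 to 3618 CPM over the 7 IFNARko libraries. In RelBko and WT it reached 10810 and 10790 CPM at CpG 8 h, and 8456 and 9572 CPM at Poly(I:C) 8 h. Mast cell and basophil markers also separated the states, at 18.8 to 31.8 CPM over the IFNAR null and 1.25 to 5.31 CPM over the IFNAR intact libraries, and their part in these differences was not tested.

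**Figure D2:**
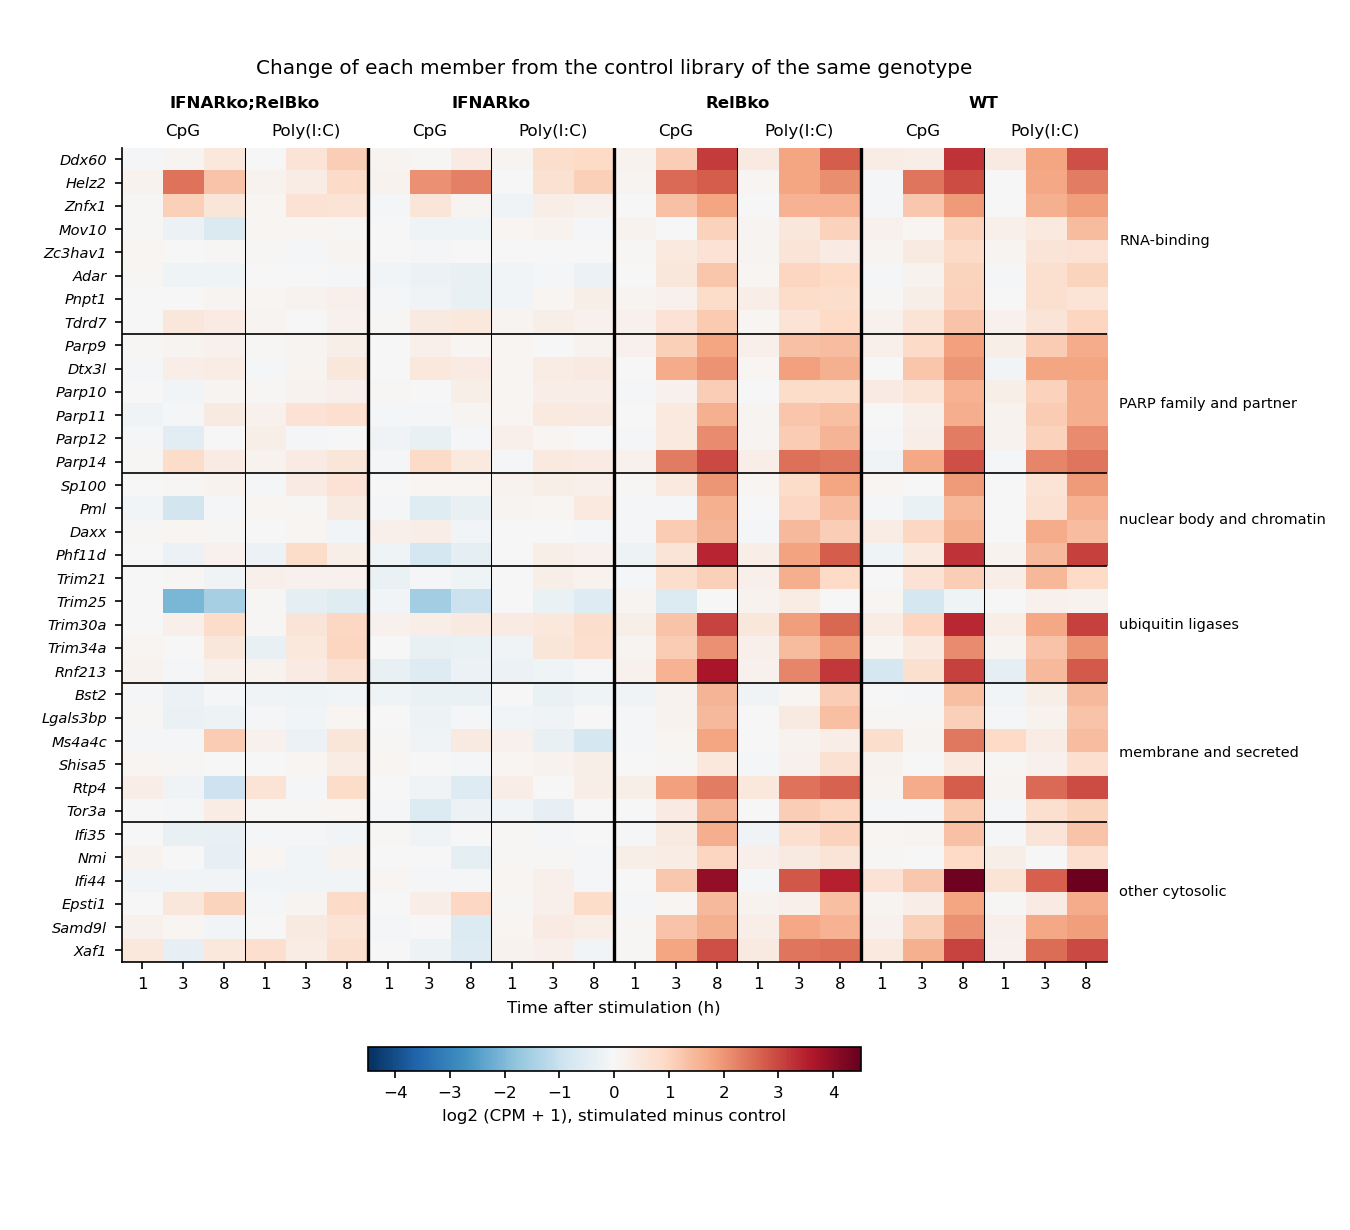
Colour map of the change of each gene from the control library of its genotype, on the log2(CPM + 1) scale (rows are genes by role, columns are 1, 3 and 8 h after CpG and Poly(I:C) in each genotype, 1 library per cell). The RelBko and WT blocks turn red by 8 h in every row except Trim25, and in the double knockout and IFNARko blocks Helz2 after CpG is the darkest red row and Trim25 after CpG the darkest blue one.

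Of the 8 RNA-binding genes, all 8 rose at 8 h after each stimulus with IFNAR intact, and 7 responded less to CpG without IFNAR. In the values that follow, the 3 numbers after each stimulus are those at 1, 3 and 8 h. Ddx60, a helicase linked to RIG-I signalling, was at 4.305 CPM in control cells, 3.94, 4.76 and 6.29 CPM after CpG and 4.33, 7.08 and 10.5 CPM after Poly(I:C) in the double knockout. In IFNARko cells Ddx60 was at 4.697 CPM in control cells, 5.21, 4.97 and 6.42 CPM after CpG and 5.18, 8.84 and 9.57 CPM after Poly(I:C). Without IFNAR no Ddx60 value passed 10.5 CPM, and the highest ones were after Poly(I:C). In RelBko cells Ddx60 was at 9.702 CPM in control cells, 11.1, 21.99 and 93.3 CPM after CpG and 13.1, 36.1 and 69.8 CPM after Poly(I:C). In WT cells Ddx60 was at 9.61 CPM in control cells, 12.3, 11.9 and 100.1 CPM after CpG and 13.1, 35.3 and 78.5 CPM after Poly(I:C). Every stimulated value with IFNAR lay above every value without it. The fitted change at 8 h after CpG was 0.42 ± 0.18 in IFNAR null cells, not called, and 3.20 ± 0.18 in IFNAR intact cells, and after Poly(I:C) it was 1.00 ± 0.18 (limma adjusted p 0.000276) and 2.82 ± 0.18. The responses differed by -2.78 ± 0.25 and -1.81 ± 0.25.

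Helz2, a zinc-finger helicase that coactivates nuclear receptors, had the highest residual share after CpG (the peak log2 change in IFNARko as a percentage of that in WT), and Epsti1 had the highest after Poly(I:C). Helz2 in double knockout cells was at 85.4 CPM in control cells, 95.5, 464 and 208 CPM after CpG and 94.4, 109 and 158 CPM after Poly(I:C). In IFNARko cells Helz2 was at 119.5 CPM in control cells, 133, 498 and 584 CPM after CpG and 118, 192 and 252 CPM after Poly(I:C). Both null genotypes were high at CpG 3 h, and at CpG 8 h the double knockout was lower than at 3 h while IFNARko was not. In RelBko cells Helz2 was at 142 CPM in control cells, 157, 834 and 941 CPM after CpG and 153, 492 and 609 CPM after Poly(I:C). In WT cells Helz2 was at 131 CPM in control cells, 124, 703 and 996 CPM after CpG and 132, 443 and 649 CPM after Poly(I:C). At CpG 3 h and CpG 8 h both intact genotypes were above both null ones. The change at CpG 3 h was 2.24 ± 0.23 without IFNAR (limma adjusted p 9.09e-06) and 2.48 ± 0.23 with it, and these differed by -0.24 ± 0.33 (limma adjusted p 0.891). At CpG 8 h the difference was -1.04 ± 0.33 (limma adjusted p 0.0634), which missed the threshold and does not show that the responses were alike. After Poly(I:C) at 8 h Helz2 changed by 0.97 ± 0.23 without IFNAR and 2.19 ± 0.23 with it, and the difference of -1.22 ± 0.33 was not called (limma adjusted p 0.0603).

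Zc3hav1 had the smallest WT peak of this group. Zc3hav1 in double knockout cells was at 253 CPM in control cells, 271, 251 and 259 CPM after CpG and 259.5, 240.4 and 275 CPM after Poly(I:C). In IFNARko cells Zc3hav1 was at 276 CPM in control cells, 271, 262 and 282 CPM after CpG and 279, 269 and 271 CPM after Poly(I:C). These 14 libraries lay between 240.4 and 282 CPM. In RelBko cells Zc3hav1 was at 271 CPM in control cells, 282, 369.6 and 428 CPM after CpG and 298, 408 and 349.7 CPM after Poly(I:C). In WT cells Zc3hav1 was at 254 CPM in control cells, 276, 336 and 458 CPM after CpG and 277, 376 and 402 CPM after Poly(I:C). With IFNAR the 3 and 8 h values after both stimuli exceeded every value without it, and the responses differed by -0.72 ± 0.11 at CpG 8 h and -0.46 ± 0.11 at Poly(I:C) 8 h. Znfx1, a helicase that binds double-stranded RNA, rose at CpG 3 h in null cells by 0.81 ± 0.10 and in intact cells by 1.27 ± 0.10. At CpG 8 h Tdrd7, a tudor protein of RNA granules, rose by 0.42 ± 0.09 without IFNAR and 1.24 ± 0.09 with it. Mov10, a helicase that restricts retroelements, fell by 0.43 ± 0.11 without IFNAR and rose by 1.04 ± 0.11 with it. Adar, which edits double-stranded RNA, changed by -0.26 ± 0.09 and 1.11 ± 0.09, both called, and Pnpt1, a mitochondrial exoribonuclease, by -0.09 ± 0.12, not called, and 0.94 ± 0.12, called.

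All 6 genes of the PARP group rose at 3 and 8 h after both stimuli with IFNAR intact, and all 6 responded less without it at 8 h. Parp14, a large mono-ADP-ribosyltransferase with macrodomains, led the group. Parp14 in double knockout cells was at 135 CPM in control cells, 140.0, 239.8 and 174 CPM after CpG and 152, 172 and 195 CPM after Poly(I:C). In IFNARko cells Parp14 was at 225 CPM in control cells, 213, 409 and 309 CPM after CpG and 216, 305 and 289 CPM after Poly(I:C). The highest null value in both genotypes came at CpG 3 h. In RelBko cells Parp14 was at 129.6 CPM in control cells, 149.7, 663 and 1014 CPM after CpG and 159, 732 and 672 CPM after Poly(I:C). In WT cells Parp14 was at 151 CPM in control cells, 137, 503 and 1131 CPM after CpG and 147, 692 and 802 CPM after Poly(I:C). With IFNAR every 3 and 8 h value was above every value without it. At CpG 3 h Parp14 rose by 0.84 ± 0.11 without IFNAR (limma adjusted p 9.22e-06) and 2.04 ± 0.11 with it, and at CpG 8 h by 0.41 ± 0.11 and 2.93 ± 0.11, a difference of -2.52 ± 0.16.

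Dtx3l encodes the ubiquitin ligase partner of Parp9. Dtx3l in double knockout cells was at 99.01 CPM in control cells, 93.2, 123 and 124 CPM after CpG and 94.96, 109 and 142 CPM after Poly(I:C). In IFNARko cells Dtx3l was at 126 CPM in control cells, 126, 174 and 162 CPM after CpG and 134, 159.6 and 167 CPM after Poly(I:C). Without IFNAR the changes were small and called at 3 and 8 h after CpG and at 8 h after Poly(I:C), the last by 0.46 ± 0.10. In RelBko cells Dtx3l was at 95.4 CPM in control cells, 97.8, 307 and 389 CPM after CpG and 101, 349 and 293 CPM after Poly(I:C). In WT cells Dtx3l was at 83.7 CPM in control cells, 81.9, 200.3 and 337 CPM after CpG and 76.6, 290.1 and 289 CPM after Poly(I:C). Its 3 and 8 h values with IFNAR were above every value without it. The CpG 8 h change was 0.34 ± 0.10 without IFNAR and 2.00 ± 0.10 with it. Parp10, which modifies single residues of target proteins, had the smallest WT peak of the group. Parp10 in double knockout cells was at 56.6 CPM in control cells, 57.1, 52.2 and 61.1 CPM after CpG and 58.2, 63.9 and 66.5 CPM after Poly(I:C). In IFNARko cells Parp10 was at 59.3 CPM in control cells, 61.7, 59.96 and 71.6 CPM after CpG and 62.9, 73.5 and 72.3 CPM after Poly(I:C). None of its null changes was called. In RelBko cells Parp10 was at 63.98 CPM in control cells, 59.8, 73.3 and 139.5 CPM after CpG and 63.8, 114 and 115 CPM after Poly(I:C). In WT cells Parp10 was at 41.1 CPM in control cells, 53.6, 63.7 and 122 CPM after CpG and 49.9, 85.5 and 128 CPM after Poly(I:C). Only the 8 h values and Poly(I:C) 3 h values with IFNAR were above every value without it. Its change at CpG 8 h was 0.19 ± 0.11 without IFNAR and 1.33 ± 0.11 with it. For the zinc-finger member Parp12, which was called lower without IFNAR at CpG 3 h (-0.41 ± 0.11), the same pair was -0.05 ± 0.11 and 2.22 ± 0.11, and for Parp9, which has macrodomains, 0.14 ± 0.09 and 1.81 ± 0.09. Parp11 rose without IFNAR after Poly(I:C), by 0.54 ± 0.11 at 3 h and 0.58 ± 0.11 at 8 h, beside 1.19 ± 0.11 and 1.50 ± 0.11 with IFNAR.

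All 4 nuclear body and chromatin genes rose at 8 h after both stimuli with IFNAR, and all 4 responded less without it at 8 h. Phf11d in double knockout cells was at 1.502 CPM in control cells, 1.55, 1.06 and 1.83 CPM after CpG and 1.08, 3.39 and 1.97 CPM after Poly(I:C). In IFNARko cells Phf11d was at 5.34 CPM in control cells, 4.53, 2.66 and 3.67 CPM after CpG and 5.303, 6.63 and 6.32 CPM after Poly(I:C). The double knockout values rest on 104 reads in all and the IFNARko values on 315. In RelBko cells Phf11d was at 5.62 CPM in control cells, 4.66, 8.94 and 70.9 CPM after CpG and 7.16, 22.2 and 42.9 CPM after Poly(I:C). In WT cells Phf11d was at 6.74 CPM in control cells, 5.83, 9.46 and 73.3 CPM after CpG and 7.55, 20.3 and 63.5 CPM after Poly(I:C). The 3 and 8 h values with IFNAR were above every value without it. The CpG 8 h change was -0.13 ± 0.20 without IFNAR, not called, and 3.35 ± 0.20 with it (limma adjusted p 6.73e-13), on a scale that understates changes of low genes. At CpG 3 h Phf11d fell without IFNAR (-0.54 ± 0.20). Mouse has close copies of Phf11d, and how reads were shared among them is not given, so its values are uncertain, as are those of Trim30a, Trim34a, Ms4a4c and Sp100.

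Pml, which builds the nuclear bodies that hold Sp100 and Daxx, had the smallest WT peak of the group. Pml in double knockout cells was at 58.4 CPM in control cells, 53.2, 32.3 and 55.6 CPM after CpG and 61.9, 59.9 and 77.5 CPM after Poly(I:C). In IFNARko cells Pml was at 88.7 CPM in control cells, 85.1, 60.8 and 70.6 CPM after CpG and 96.3, 95.04 and 119.7 CPM after Poly(I:C). In both genotypes CpG 3 h was the lowest value and Poly(I:C) 8 h the highest. In RelBko cells Pml was at 68.5 CPM in control cells, 66.4, 65.4 and 209 CPM after CpG and 68.7, 133 and 182 CPM after Poly(I:C). In WT cells Pml was at 68.8 CPM in control cells, 64.4, 55.2 and 198 CPM after CpG and 67.8, 111 and 205 CPM after Poly(I:C). The IFNAR states overlapped at CpG 3 h and were apart at 8 h after both stimuli. Pml fell by 0.69 ± 0.10 at CpG 3 h without IFNAR (limma adjusted p 1.18e-05), and its change with IFNAR was -0.19 ± 0.10 and not called. At 8 h it rose with IFNAR by 1.55 ± 0.10 after CpG. Sp100, a nuclear body component, changed by 0.12 ± 0.12 without IFNAR and 1.95 ± 0.12 with it at CpG 8 h, and Daxx, a histone chaperone, by -0.04 ± 0.11 and 1.56 ± 0.11, with only the changes in intact cells called.

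Of the 5 ubiquitin ligase genes, 4 rose at 8 h after each stimulus with IFNAR, and all 5 responded less without it. Trim25 was the exception, and the only member called lower with IFNAR intact at CpG 3 h, a call lost without WT. Trim25 in double knockout cells was at 374 CPM in control cells, 365, 90.2 and 131 CPM after CpG and 389.7, 285 and 257 CPM after Poly(I:C). In IFNARko cells Trim25 was at 287 CPM in control cells, 264, 95.9 and 145 CPM after CpG and 291, 235 and 194 CPM after Poly(I:C). The CpG 3 h values were the lowest of both genotypes. In RelBko cells Trim25 was at 436 CPM in control cells, 470.2, 288 and 431 CPM after CpG and 484, 548 and 442 CPM after Poly(I:C). In WT cells Trim25 was at 446 CPM in control cells, 479, 257 and 387 CPM after CpG and 455, 514 and 492 CPM after Poly(I:C). All 4 genotypes were lower at CpG 3 h than at CpG 1 h, the null ones further. Trim25 fell by 1.81 ± 0.12 without IFNAR (limma adjusted p 1.12e-09) and by 0.70 ± 0.12 with it (limma adjusted p 9.83e-05), a difference of -1.11 ± 0.17. At CpG 8 h it was still lower without IFNAR (-1.25 ± 0.12), and with IFNAR the change of -0.11 ± 0.12 was not called.

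Trim30a, a mouse restriction factor family member, and Rnf213, a giant ligase that coats intracellular pathogens, had the highest WT peaks of the group relative to control. Trim30a in double knockout cells was at 37.5 CPM in control cells, 36.9, 44.1 and 66.6 CPM after CpG and 39.1, 56.6 and 72.9 CPM after Poly(I:C). In IFNARko cells Trim30a was at 48.7 CPM in control cells, 55.2, 59.5 and 64.2 CPM after CpG and 62.9, 67.2 and 84.8 CPM after Poly(I:C). Trim30a rose without IFNAR at 8 h, by 0.60 ± 0.16 after CpG and 0.86 ± 0.16 after Poly(I:C). In RelBko cells Trim30a was at 53.6 CPM in control cells, 64.7, 130.5 and 449.7 CPM after CpG and 77.3, 202 and 329.8 CPM after Poly(I:C). In WT cells Trim30a was at 43.01 CPM in control cells, 54.4, 86.1 and 457 CPM after CpG and 53.6, 146 and 368 CPM after Poly(I:C). From 3 h on, values with IFNAR were above every value without it. Its intact changes at 8 h were 3.21 ± 0.16 and 2.83 ± 0.16. Rnf213 in double knockout cells was at 77.7 CPM in control cells, 86.5, 73.9 and 92.3 CPM after CpG and 87.4, 101 and 125 CPM after Poly(I:C). In IFNARko cells Rnf213 was at 212 CPM in control cells, 168, 141 and 177 CPM after CpG and 176, 187 and 206 CPM after Poly(I:C). No Rnf213 change without IFNAR was called. In RelBko cells Rnf213 was at 138 CPM in control cells, 158, 415 and 1778 CPM after CpG and 159, 634 and 1247 CPM after Poly(I:C). In WT cells Rnf213 was at 241 CPM in control cells, 138, 401 and 2054 CPM after CpG and 182, 668 and 1635 CPM after Poly(I:C). The states overlapped in control cells and were apart from 3 h on. The CpG 8 h change was -0.01 ± 0.18 without IFNAR and 3.38 ± 0.18 with it, a difference of -3.39 ± 0.26 (limma adjusted p 9.15e-07).

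Trim34a, a member of the same TRIM cluster as Trim30a, was among the lowest at rest. Trim34a in double knockout cells was at 8.11 CPM in control cells, 8.597, 8.12 and 12.1 CPM after CpG and 6.25, 11.8 and 16.9 CPM after Poly(I:C). In IFNARko cells Trim34a was at 8.04 CPM in control cells, 8.23, 6.12 and 6.42 CPM after CpG and 7.07, 12.1 and 14.2 CPM after Poly(I:C). Poly(I:C) 8 h was the highest value of both. In RelBko cells Trim34a was at 8.02 CPM in control cells, 8.74, 18.8 and 36.5 CPM after CpG and 9.55, 22.97 and 33.3 CPM after Poly(I:C). In WT cells Trim34a was at 6.31 CPM in control cells, 6.85, 9.03 and 30.9 CPM after CpG and 6.92, 16.8 and 28.5 CPM after Poly(I:C). Both 8 h conditions with IFNAR were above every value without it. At Poly(I:C) 8 h it rose by 0.86 ± 0.19 without IFNAR and 1.97 ± 0.19 with it. Trim21 peaked at Poly(I:C) 3 h with IFNAR, at 77.1 CPM in RelBko and 59.7 CPM in WT, by 1.55 ± 0.10, and its null change of 0.22 ± 0.10 was not called.

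All 6 membrane and secreted protein genes rose at 8 h after both stimuli with IFNAR, and 5 responded less without it. Rtp4 in double knockout cells was at 0.901 CPM in control cells, 1.35, 0.706 and 0 CPM after CpG and 1.92, 0.797 and 2.41 CPM after Poly(I:C), from 72 reads in all. The 0 at CpG 8 h was in a library where 3 reads make 0.786 CPM, so a level up to that is allowed by counting error alone. In IFNARko cells Rtp4 was at 4.57 CPM in control cells, 4.53, 4.04 and 2.75 CPM after CpG and 5.77, 4.65 and 5.81 CPM after Poly(I:C). In RelBko cells Rtp4 was at 14.3 CPM in control cells, 17.1, 54.2 and 75.05 CPM after CpG and 20.1, 82.5 and 95.3 CPM after Poly(I:C). In WT cells Rtp4 was at 12.5 CPM in control cells, 13.6, 41.6 and 88.5 CPM after CpG and 13.7, 78.2 and 102 CPM after Poly(I:C). Every value with IFNAR was above every value without it, already at rest. The CpG 3 h change was -0.15 ± 0.19 without IFNAR, not called, and 1.76 ± 0.19 with it. The CpG 8 h change was -0.75 ± 0.19 (limma adjusted p 0.00349) and 2.52 ± 0.19, and at Poly(I:C) 8 h 0.57 ± 0.19 and 2.79 ± 0.19.

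Bst2 and Lgals3bp, the 2 most abundant members per kilobase at rest, rose with IFNAR at 8 h after both stimuli, and Lgals3bp also at Poly(I:C) 3 h (0.29 ± 0.09). Bst2 in double knockout cells was at 47.4 CPM in control cells, 44.95, 39.2 and 46.1 CPM after CpG and 42.7, 41.3 and 43.6 CPM after Poly(I:C). In IFNARko cells Bst2 was at 74.2 CPM in control cells, 65.2, 60.2 and 60.5 CPM after CpG and 72.8, 60.7 and 64.3 CPM after Poly(I:C). In both the control value was the highest. In RelBko cells Bst2 was at 95.4 CPM in control cells, 84.6, 106 and 279 CPM after CpG and 84.5, 103 and 209 CPM after Poly(I:C). In WT cells Bst2 was at 104 CPM in control cells, 103, 97.4 and 268 CPM after CpG and 94.9, 124 and 289 CPM after Poly(I:C). Every value with IFNAR was above every value without it. At 3 h Bst2 changed with IFNAR by 0.03 ± 0.10 after CpG and 0.18 ± 0.10 after Poly(I:C), neither called, and at 8 h by 1.45 ± 0.10 and 1.30 ± 0.10, both called. Without IFNAR it was called lower at CpG 3 h (-0.28 ± 0.10), and its CpG 8 h change of -0.16 ± 0.10 was not called. Lgals3bp in double knockout cells was at 137 CPM in control cells, 142, 109.6 and 115 CPM after CpG and 128, 127 and 144 CPM after Poly(I:C). In IFNARko cells Lgals3bp was at 198 CPM in control cells, 198, 169.7 and 187 CPM after CpG and 182, 179 and 194 CPM after Poly(I:C). The highest value was Poly(I:C) 8 h in the double knockout and the control in IFNARko. In RelBko cells Lgals3bp was at 214 CPM in control cells, 205, 239.9 and 589 CPM after CpG and 216, 285 and 543 CPM after Poly(I:C). In WT cells Lgals3bp was at 276 CPM in control cells, 288, 286 and 589 CPM after CpG and 265, 312 and 671 CPM after Poly(I:C). Here too the IFNAR states did not overlap in any library. Without IFNAR Lgals3bp was called lower at CpG 3 h (-0.27 ± 0.09). The CpG 8 h change was -0.16 ± 0.09 without IFNAR, not called, and 1.27 ± 0.09 with it.

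Ms4a4c, a tetraspan membrane protein gene, was low and uneven. Ms4a4c in double knockout cells was at 4.21 CPM in control cells, 3.94, 3.88 and 10.5 CPM after CpG and 4.93, 3.29 and 6.68 CPM after Poly(I:C). In IFNARko cells Ms4a4c was at 10.1 CPM in control cells, 10.4, 9.01 and 13.8 CPM after CpG and 11.7, 7.79 and 5.399 CPM after Poly(I:C). CpG 8 h was the highest value in both, and the change of 0.78 ± 0.31 was not called. In RelBko cells Ms4a4c was at 13.9 CPM in control cells, 13.2, 14.8 and 50.6 CPM after CpG and 13.8, 15.7 and 17.3 CPM after Poly(I:C). In WT cells Ms4a4c was at 4.301 CPM in control cells, 8.12, 4.82 and 26.1 CPM after CpG and 8.97, 5.72 and 12.8 CPM after Poly(I:C). The states overlapped in all conditions but CpG 8 h and Poly(I:C) 8 h. Its rise with IFNAR was 2.07 ± 0.31 at CpG 8 h, and the difference of -1.30 ± 0.43 was not called (limma adjusted p 0.0658).

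Shisa5 in double knockout cells was at 151 CPM in control cells, 159, 156 and 152 CPM after CpG and 154, 159 and 193 CPM after Poly(I:C). In IFNARko cells Shisa5 was at 238 CPM in control cells, 251, 239 and 231 CPM after CpG and 251, 263 and 285 CPM after Poly(I:C). Every IFNARko value was above every double knockout value. In RelBko cells Shisa5 was at 214 CPM in control cells, 209, 224 and 299.9 CPM after CpG and 203, 248 and 347 CPM after Poly(I:C). In WT cells Shisa5 was at 204 CPM in control cells, 228, 202 and 278 CPM after CpG and 212, 234 and 348 CPM after Poly(I:C). The states overlapped up to 3 h. Its rises at 8 h with IFNAR, 0.47 ± 0.07 after CpG and 0.73 ± 0.07 after Poly(I:C), were small, and without IFNAR it rose by 0.31 ± 0.07 after Poly(I:C). Tor3a encodes a torsin ATPase of the endoplasmic reticulum. Tor3a in double knockout cells was at 64.3 CPM in control cells, 63.7, 59.8 and 81.3 CPM after CpG and 66.7, 67.1 and 67.7 CPM after Poly(I:C). In IFNARko cells Tor3a was at 81.01 CPM in control cells, 77.1, 52.1 and 66.7 CPM after CpG and 74.4, 61.9 and 82.5 CPM after Poly(I:C). No null change of Tor3a was called. In RelBko cells Tor3a was at 75.4 CPM in control cells, 74.2, 98.7 and 222 CPM after CpG and 76.8, 165 and 149 CPM after Poly(I:C). In WT cells Tor3a was at 83.2 CPM in control cells, 80.8, 78.2 and 191 CPM after CpG and 79.9, 138 and 169.5 CPM after Poly(I:C). At 8 h and Poly(I:C) 3 h values with IFNAR were above every value without it. The Poly(I:C) 3 h change was -0.16 ± 0.14 without IFNAR and 0.92 ± 0.14 with it.

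Among the 6 other cytosolic genes, all 6 rose at 8 h after both stimuli with IFNAR, and the group held both the gene with the fewest reads without IFNAR and one of those with the highest residual share. Ifi44, a cytosolic protein gene of the interferon response, had 1 read over all 7 double knockout libraries and 5 over all 7 IFNARko libraries, against 1380 reads over the RelBko and 3686 over the WT libraries. Double knockout Ifi44 was at 0.100 CPM in control cells and 0 in the other 6 libraries, and in IFNARko it did not exceed 0.233 CPM. In RelBko cells Ifi44 was at 3.23 CPM in control cells, 3.26, 8.76 and 65.2 CPM after CpG and 3.02, 28.7 and 46.7 CPM after Poly(I:C). In WT cells Ifi44 was at 2.29 CPM in control cells, 4.18, 6.71 and 68.01 CPM after CpG and 4.09, 20.3 and 69.8 CPM after Poly(I:C). Every value with IFNAR was above every value without it. The change with IFNAR was 4.18 ± 0.23 at CpG 8 h and 3.96 ± 0.23 at Poly(I:C) 8 h. The null values were under the limit of 3 reads in every library, so no fold is given against them.

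Epsti1, first known from epithelial-stromal interaction and also expressed in macrophages, had a response of its own without IFNAR. Epsti1 in double knockout cells was at 53.1 CPM in control cells, 52.6, 76.8 and 108 CPM after CpG and 50.4, 57.2 and 96.3 CPM after Poly(I:C). In IFNARko cells Epsti1 was at 57.3 CPM in control cells, 58.3, 70.5 and 109.5 CPM after CpG and 59.3, 66.5 and 102 CPM after Poly(I:C). Both null genotypes stood at their highest at 8 h after each stimulus. In RelBko cells Epsti1 was at 61.4 CPM in control cells, 57.8, 64.9 and 169 CPM after CpG and 69.2, 72.7 and 156 CPM after Poly(I:C). In WT cells Epsti1 was at 57.6 CPM in control cells, 62.1, 71.02 and 200.0 CPM after CpG and 59.1, 74.6 and 184 CPM after Poly(I:C). At 8 h both intact genotypes were above both null ones. Epsti1 rose at CpG 8 h by 0.97 ± 0.10 without IFNAR (limma adjusted p 3.93e-08) and 1.61 ± 0.10 with it, and at Poly(I:C) 8 h by 0.83 ± 0.10 and 1.50 ± 0.10. The responses still differed, by -0.64 ± 0.14 (limma adjusted p 0.00412) and -0.66 ± 0.14.

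Nmi and Ifi35, whose products bind each other, rose at 8 h with IFNAR after both stimuli, and Ifi35 at Poly(I:C) 3 h as well (0.67 ± 0.12). Nmi in double knockout cells was at 28.1 CPM in control cells, 31.6, 28.4 and 21.8 CPM after CpG and 29.7, 25.8 and 31.4 CPM after Poly(I:C). In IFNARko cells Nmi was at 35 CPM in control cells, 34.3, 35.5 and 25.99 CPM after CpG and 36.2, 36.2 and 33.9 CPM after Poly(I:C). CpG 8 h was the lowest value in both, with a fall of 0.39 ± 0.12. In RelBko cells Nmi was at 26.2 CPM in control cells, 31.4, 32.9 and 51.8 CPM after CpG and 30.9, 34.8 and 39.3 CPM after Poly(I:C). In WT cells Nmi was at 23.7 CPM in control cells, 24.5, 23.6 and 44.5 CPM after CpG and 28.3, 23.1 and 40.4 CPM after Poly(I:C). In control cells the null values were the higher ones, and at 8 h the intact ones. At CpG 8 h Nmi rose with IFNAR by 0.92 ± 0.12 and Ifi35 by 1.48 ± 0.12, with Ifi35 at -0.18 ± 0.12, not called, without it. Samd9l, an inhibitor of translation, rose at CpG 3 h by 1.18 ± 0.13 with IFNAR and changed by 0.04 ± 0.13 without it. Its CpG 8 h change was a fall of 0.36 ± 0.13 without IFNAR and a rise of 1.82 ± 0.13 with it, whereas at Poly(I:C) 8 h it rose by 0.45 ± 0.13 and 1.72 ± 0.13. Xaf1 changed at CpG 8 h by -0.04 ± 0.22, not called, without IFNAR and by 2.98 ± 0.22 with it.

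**Figure D3:**
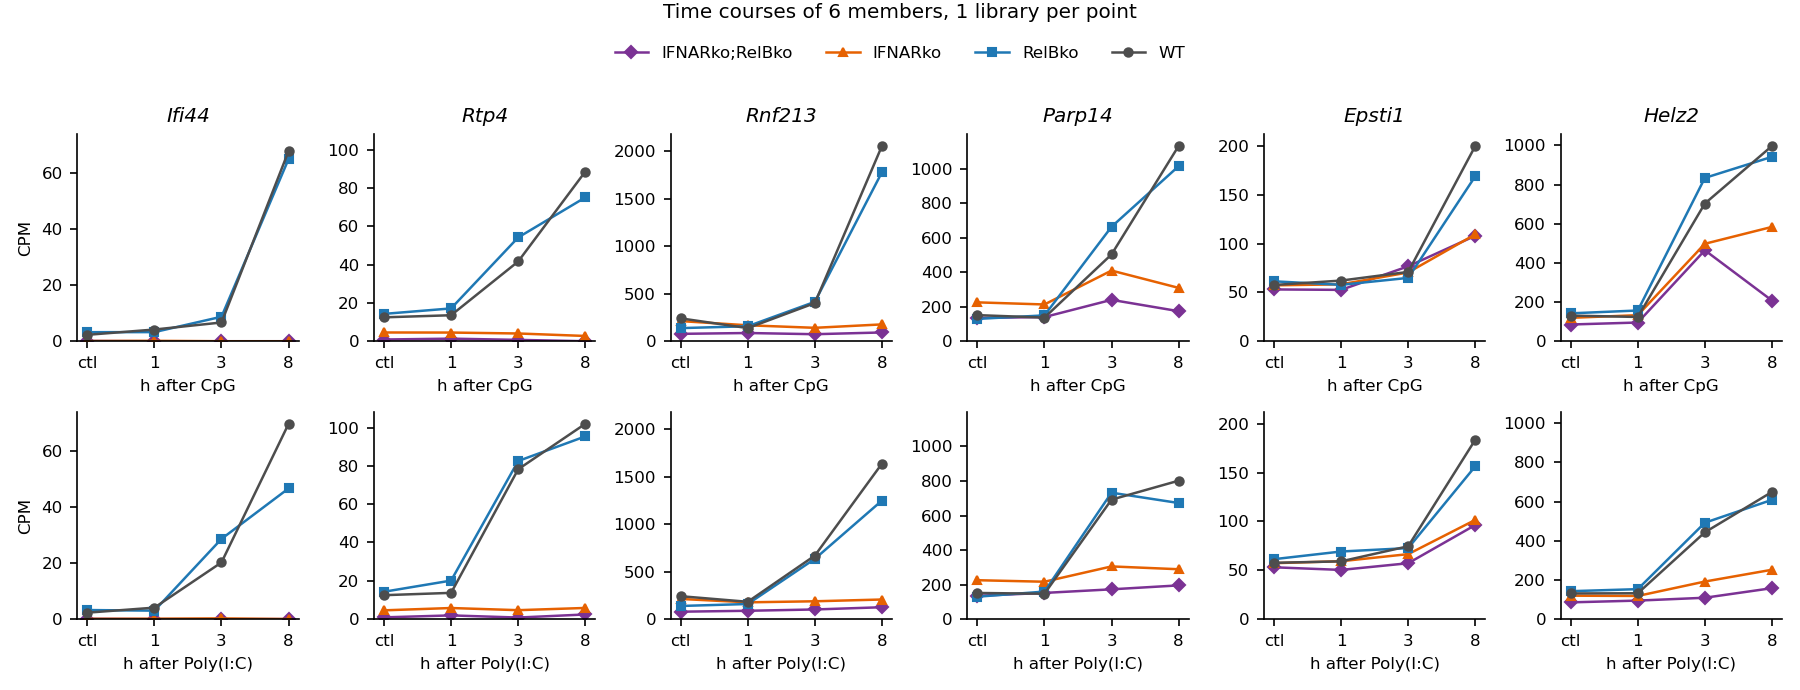
CPM of 6 genes (columns) against hours after CpG (upper row) and Poly(I:C) (lower row), with the control library at the left as ctl and 1 library per point for each of 4 genotypes. Ifi44, Rtp4 and Rnf213 stay low without IFNAR, Epsti1 climbs at 8 h in all genotypes, and Helz2 climbs at CpG 3 h in all genotypes.

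Most genes with IFNAR were highest at 8 h, the last time sampled, so a later maximum could not be seen. Without IFNAR the highest values were spread over the control and the 3 times. In the double knockout 5 of 35 were highest in the control library, 10 at 1 h, 6 at 3 h and 14 at 8 h after CpG, and 3, 5, 4 and 23 after Poly(I:C). In IFNARko 14 were highest in the control library, 5 at 1 h, 7 at 3 h and 9 at 8 h after CpG, and 4, 7, 12 and 12 after Poly(I:C). In RelBko 34 of 35 were highest at 8 h after CpG and 1 (Trim25) at 1 h, and in WT the counts and the exception were the same. After Poly(I:C) 10 were highest at 3 h and 25 at 8 h in RelBko, and 5 at 3 h and 30 at 8 h in WT. On the log2(CPM + 1) scale the peak reached 2-fold over control for 4 of 35 after CpG in the double knockout, 1 in IFNARko, 30 in RelBko and 30 in WT, and for 1, 1, 26 and 28 after Poly(I:C). These are maxima over single libraries and carry no test.

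The step between 3 and 8 h was tested. With IFNAR 34 of 35 rose further between 3 and 8 h after CpG (background 10.7%), all but Helz2. After Poly(I:C) 18 rose further (background 4.04%) and Trim21 fell (background 7.9%). That 18 became 6 without WT, and without either CpG 8 h library of lowest depth Daxx fell as well. The 8 minus 3 h step was larger after CpG than after Poly(I:C) for 21 of 35 (background 1.63%), smaller for none. That count was 6 without WT, 3 without RelBko and 12 with plain eBayes. All 4 nuclear body and chromatin genes and all 6 PARP genes were among the 21. Without IFNAR 5 rose and 5 fell between 3 and 8 h after CpG (background 9.28% and 7.76%), and after Poly(I:C) only Epsti1 rose (background 1.26% higher and 1.8% lower). Without the double knockout CpG 8 h library the CpG counts were 2 and 2, leaving out the double knockout altogether also gave 2 and 2, and without IFNARko 2 fell. The rise of Epsti1 after Poly(I:C), 0.67 ± 0.10, was not called without the double knockout, and 3 genes were called without either library of lowest depth.

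The residual share, the peak log2 change in IFNARko as a percentage of that in WT, was taken for genes with a WT peak of at least 2-fold. After CpG its median was 2.43% over 30 genes, from -13.6% for Bst2 to 77.99% for Helz2, and 25 of the 30 lay under 25%. After Poly(I:C) the median was 14.2% over 28 genes, from -2.67% for Lgals3bp to 49.3% for Epsti1, and 21 lay under 25%. In the double knockout as a percentage of RelBko the medians were 11.4% over 30 genes after CpG and 28.3% over 26 genes after Poly(I:C). The highest shares there were again those of Helz2 after CpG, 89.4%, and Epsti1 after Poly(I:C), 63.5%. Each share is a ratio of single libraries, with no test. By the mean of both stimuli in IFNARko over WT, the highest were Helz2 (62.2%), Epsti1 (50.6%), Parp14 (24.0%) and Dtx3l (22.9%), and the lowest Bst2 (-7.68%), Rnf213 (-4.94%), Tor3a (-1.66%) and Lgals3bp (-1.503%).

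**Figure D4:**
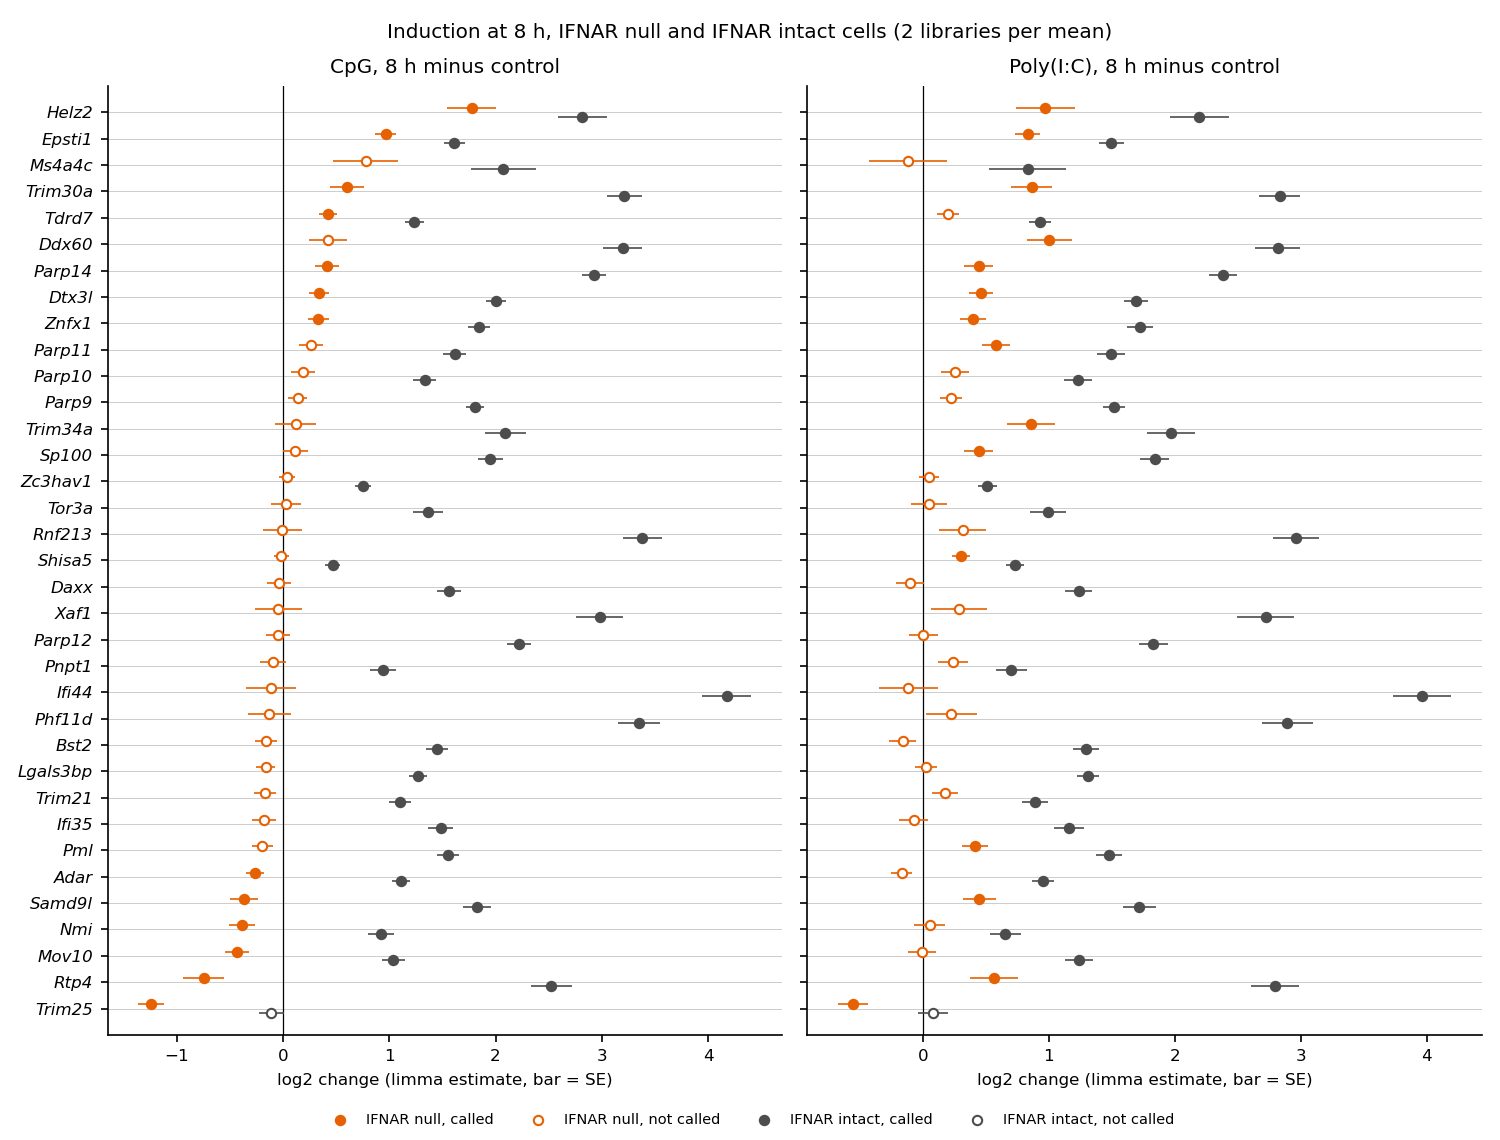
Limma estimates of the log2 change from control at 8 h after CpG (left) and Poly(I:C) (right) for each of the 35 genes, in IFNAR null cells (upper point of each row) and IFNAR intact cells (lower point), with SE bars and filled points where called. The intact points lie between -0.11 (Trim25) and 4.18 (Ifi44) after CpG, and the null points between -1.25 (Trim25) and 1.78 (Helz2).

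Markers of other cell types differed between the genotypes. Over the 7 libraries of a genotype, 3 T cell markers summed to 6.85 to 13.6 CPM in the double knockout, 54.1 to 66.4 CPM in IFNARko, 11.7 to 15.0 CPM in RelBko and 8.999 to 14.3 CPM in WT. The 3 NK cell markers summed to 4.06 to 9.38, 20.8 to 59.1, 3.30 to 10.5 and 2.27 to 11.2 CPM in the same order, and the interferon gamma gene Ifng was at 1.196 to 4.14, 8.03 to 29.2, 1.498 to 4.03 and 0.98 to 3.46 CPM. Most of the NK cell sum in IFNARko was Eomes, at 19.6 to 55.6 CPM, and Ncr1 did not exceed 0.322 CPM in any library. The 7 macrophage markers matched of 8 summed to 294 to 501, 269 to 529, 443 to 844 and 695.5 to 929 CPM. The 6 neutrophil markers summed to 21.9 to 34.5, 60.3 to 159, 156 to 240 and 57.2 to 96.7 CPM, and 3 mast cell and basophil markers to 25.2 to 31.8, 18.8 to 25.1, 1.25 to 3.85 and 1.40 to 5.31 CPM. Between the double knockout and IFNARko, Mpo went against the neutrophil sum, at 11.5 to 23.9 and 2.75 to 5.54 CPM. Elane overlapped between these genotypes, and S100a8, S100a9, Ly6g and Camp went with the sum. The 6 plasmacytoid dendritic cell markers summed to 104 to 192, 70.6 to 104, 91.3 to 114 and 73.3 to 98.8 CPM, and 3 B cell markers to at most 7.9 CPM in any library. In the same order, 8 dendritic cell markers summed to 8467 to 9550, 12010 to 13120, 10250 to 12580 and 8269 to 11650 CPM. The double knockout and IFNARko did not overlap in summed dendritic cell, T cell, NK cell, B cell, neutrophil, or mast cell and basophil markers. Of single markers, Flt3 went against the dendritic cell sum, at 11.8 to 26.7 and 3.28 to 5.81 CPM. Mcpt8 went against the mast cell and basophil sum, at 4.93 to 7.94 and 9.77 to 14.3 CPM. Itgax, Zbtb46, Cd209a, Cd4, Ncr1 and Cd79a overlapped. RelBko and WT overlapped in each of these sums but that of the neutrophil markers. Mast cell and basophil markers were higher in every IFNAR null library than in any IFNAR intact one. These values stand beside all comparisons by IFNAR and by RelB, and their part in the results was not tested.

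Loss of RelB went with lower levels of the genes where IFNAR was also lost. Each RelB comparison sets a genotype against another, with the 7 conditions standing in as repeats. Its p-values and counts of conditions therefore cannot tell a RelB effect from any other fixed difference between those cells. Averaged over 7 conditions, 21 of 35 were lower and 2 higher in the double knockout than in IFNARko (background 19.5% and 38.2%). With IFNAR intact, 2 were lower and 18 higher in RelBko than in WT (background 12% and 27.2%). The RelB effect itself was lower without IFNAR than with it for 25 of 35 (background 16.7%) and higher for none (background 17.1%). Trim25 was called higher with voom or without either CpG 8 h library of lowest depth. Rtp4 was lower in the double knockout than in IFNARko (-1.45 ± 0.10, limma adjusted p 9.04e-12), and lower in 7 of 7 conditions, while RelBko and WT differed by 0.16 ± 0.10, not called. Phf11d (-1.10 ± 0.11) and Rnf213 (-0.98 ± 0.10) were lower, each in 7 of 7 conditions, with -0.16 ± 0.11 and -0.20 ± 0.10 between RelBko and WT, neither called. All 6 PARP genes were lower, from -0.69 ± 0.06 for Parp14 to -0.14 ± 0.06 for Parp11. Shisa5 (-0.64 ± 0.04), Pml (-0.63 ± 0.05) and Helz2 (-0.62 ± 0.12) were lower in 7 of 7 conditions as well. Every RelB comparison also sets Xist-positive against Y-positive libraries and libraries with different marker levels, as given above, and these cannot be told apart from the genotype. Without IFNAR the RelB knockout is Xist-positive and with IFNAR it is Y-positive, so this contrast is reversed between the IFNAR states. A RelB effect that differs or changes sign between IFNAR states therefore cannot be told apart from it.

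Both directions of the RelB effect were seen in 11 of 35 genes, lower in the double knockout and higher in RelBko, while 3 kept 1 direction. Of all tested genes 19.5% were called lower in the double knockout and 27.2% higher in RelBko. The share with both calls was not counted, so whether these joint counts are particular to the 35 genes is not known. Mov10 was higher without RelB in both IFNAR states, by 0.35 ± 0.06 in the double knockout against IFNARko and 0.35 ± 0.06 in RelBko against WT. Of the 11, Ms4a4c was lower in the double knockout (-0.80 ± 0.16) and higher in RelBko (0.97 ± 0.16), and Xaf1 gave the same signs (-0.76 ± 0.12 and 0.47 ± 0.12). Bst2 and Lgals3bp were lower without RelB in both IFNAR states, with -0.57 ± 0.06 and -0.16 ± 0.06 for Bst2 and -0.54 ± 0.05 and -0.26 ± 0.05 for Lgals3bp. Median-ratio scaling gave 11 higher and 4 lower in RelBko against WT in place of 18 and 2. Of all 12972 tested genes it called 1966 higher and 2307 lower, in place of 3524 and 1556. The 2 falls became 1 without a filter, with plain eBayes or with the CpG and control libraries alone.

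**Figure D5:**
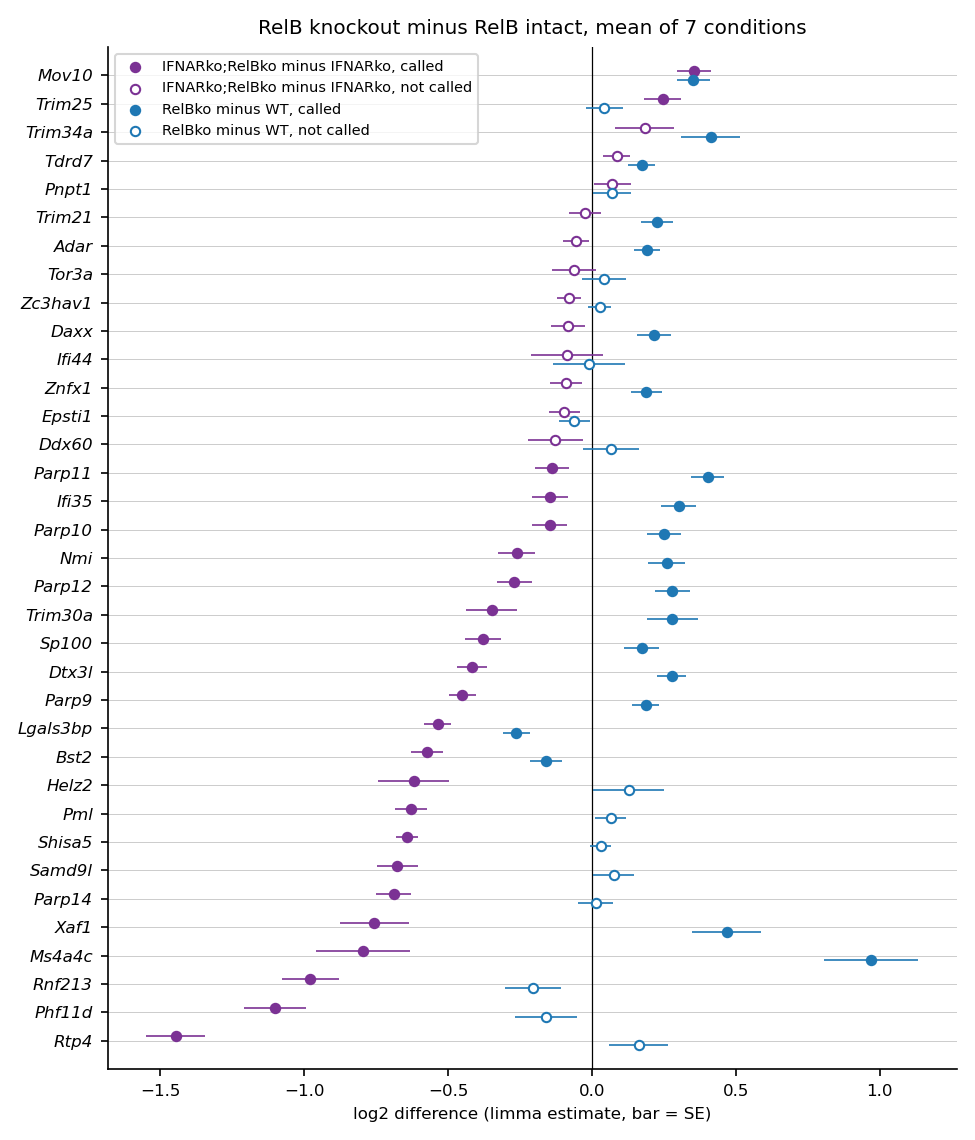
Limma estimates of the log2 difference by RelB, averaged over 7 conditions, for each of the 35 genes: the double knockout minus IFNARko (upper point of each row) and RelBko minus WT (lower point), with SE bars and filled points where called. The estimates without IFNAR run from 0.35 (Mov10) to -1.45 (Rtp4), and those with IFNAR from 0.97 (Ms4a4c) to -0.26 (Lgals3bp).

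The signalling genes upstream of these effectors were followed as a list of 21, of which 15 were tested. Of the 15, 12 rose at CpG 8 h with IFNAR (background 15.9%), while without it 3 rose and 4 fell (background 11.7% and 25.4%), and 6 responded less (background 3.79%). At Poly(I:C) 8 h the counts were 9 up with IFNAR (background 16.1%), 1 up and 1 down without it (background 9.3% and 9.61%), and 6 responding less (background 2.01%). Irf7, the factor that amplifies interferon production, was at 1.57 CPM in the double knockout and 1.83 CPM in IFNARko at CpG 8 h, against 228 CPM in RelBko and 191 CPM in WT. Its response differed by -4.36 ± 0.32 (limma adjusted p 6.05e-09). The responses of Stat2 (-2.56 ± 0.19) and Usp18, which shuts off IFNAR signalling (-3.87 ± 0.41), were also lower. Ifnb1, the interferon beta gene, picked out here after its values were seen, did not exceed 1.97 CPM in any library. At this low level it was called higher with IFNAR at CpG 3 h (1.31 ± 0.28) and CpG 8 h (0.74 ± 0.28). Without IFNAR it was called higher at CpG 8 h (0.75 ± 0.28), at 1.83 CPM in IFNARko and 0 in the double knockout. No change of Ifnb1 after Poly(I:C) was called.

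In control cells 6 of the 15 were higher and 2 lower without IFNAR (background 21.3% and 7.34%). Irf7 was lower (-1.92 ± 0.23), as was Ifnar1 itself (-0.36 ± 0.08), while the kinase gene Tyk2 (0.51 ± 0.07) and Irf3 (0.54 ± 0.10) were higher. Irf7 was at 7.41 and 5.41 CPM in double knockout and IFNARko control cells, against 25.2 and 28.5 CPM in RelBko and WT. Without IFNAR the loss of RelB went with 9 lower and 3 higher of the 15 (background 19.5% and 38.2%), the lower ones including Ifng (-2.36 ± 0.20), Stat2 (-0.73 ± 0.07) and Irf1 (-0.84 ± 0.09). With IFNAR 5 were higher and 0 lower (background 27.2% and 12%). The RelB effect without IFNAR minus that with it was called negative for 9 and positive for 1 (background 16.7% and 17.1%).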

How the data were processed

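RNA-seq was measured in 28 libraries of mouse BMDCs, 1 per combination of 4 genotypes and 7 conditions. The deposited signal values are CPM + 1 per gene, in a CpG sheet and a Poly(I:C) sheet that repeat the same control columns. Per the submitters' processing notes, cutadapt, edgeR and the mm10 build were used, with no versions given in the sources used here. Subtracting 1 gave CPM summing to 1000000 per library in the CpG sheet and to 998750 to 999250 in the Poly(I:C) sheet. Entries with no gene name held at most 0.116% of a library and stayed out of the tests. Only 24995 genes named in both sheets were used, and 12972 of them passed the filter of at least 1 CPM in at least 3 libraries.

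Limma 3.58.1 (R 4.3.3, statmod 1.5.0) was fitted to log2(CPM + 1) of all tested genes at once, with 14 groups (7 conditions by IFNAR state), RelB terms within each IFNAR state and 12 residual degrees of freedom. Moderation used trend and robust settings, p-values are two-sided and adjusted by Benjamini-Hochberg over all tested genes within a comparison, and a call means an adjusted p under 0.05. Errors of fitted values are SE. A fold change on this scale understates the change of low genes. The fit was tried on simulated data only for the difference in response between IFNAR states at CpG 8 h. The simulated genotypes of an IFNAR state had the same levels, so their use as repeats was not tested. The 35 genes, the marker and pathway lists and the tests were chosen with earlier results of these data known.

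Values of every library are given for the genes with the highest and lowest WT peak in each role group, the 3 highest and 3 lowest in the WT control library, and the 4 highest and 4 lowest in residual share. Genes of the pathway list are given by counts, with up to 4 of lowest adjusted p; 1 gene of that list counts in them but is not reported by name here. Precision follows depth: 1 read is a larger step in the shallowest libraries, and reads without molecular identifiers are not independent molecules, so limits from a count of 0 (3 reads) cover counting error only. Promoter windows and motif shares came from RefSeq for GRCm38.p6, and gene coordinates from GENCODE M21. Alternatives were another pseudocount (0.5), no filter on low values, median-ratio scaling, plain eBayes, fits to 1 stimulus, and leaving out in turn each genotype and each of the 2 CpG 8 h libraries of lowest depth. Quantile normalisation and voom on whole reads recovered from the CPM were chosen after seeing the data.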

Additional observations from a re-analysis of the deposited data

Results flagged for a closer look

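These results stand out because the same contrast was tested for a difference between 2 groups and the test called it. The response to stimulation differed between IFNAR null and IFNAR intact cells for 13 of the 35 genes at CpG 3 h and 33 at CpG 8 h, and for 21 at Poly(I:C) 3 h and 31 at Poly(I:C) 8 h, in each case lower without IFNAR. The genes outside the 33 were Helz2 and Ms4a4c. With IFNAR intact, the step between 3 and 8 h was larger after CpG than after Poly(I:C) for 21 of the 35. The effect of RelB loss differed between IFNAR null and IFNAR intact cells for 25 of the 35, in each case lower without IFNAR. Xist and Y-linked transcripts differ within each RelB comparison, and in opposite directions in the 2 IFNAR states. The difference in the RelB effect therefore cannot be told apart from them. Dendritic cell, T cell and NK cell markers, among others, differ between the double knockout and IFNARko, and their part was not tested.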

How the results depend on the processing

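Of 41 counts of called genes, repeated 507 times, 439 repeats stayed within 1.5 times the main count. Of 6015 repeats of single values of the genes given in every library, 5681 kept their direction and side of the threshold, 247 lost a call, 86 gained one and 1 reversed (Parp14 at rest, -0.0537 to 0.682 over the genotypes left out, the first without IFNARko with limma adjusted p 0.816). With median-ratio scaling or quantile normalisation the counts over all tested genes moved as well, as given above. The cause of the moved counts was not tested.

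At rest, 5 up became 3 with median-ratio scaling and 8 with voom. Without IFNAR, 7 down at CpG 3 h became 2 with median-ratio scaling, 4 with no filter, plain eBayes or quantile normalisation and 3 with CpG and control libraries only. At CpG 8 h, 7 up and 6 down became 12 and 3 with median-ratio scaling, and 3 down with voom or without the IFNARko CpG 8 h library. At Poly(I:C) 3 h, 4 up and 0 down became 7 and 1 without either CpG 8 h library of lowest depth or with Poly(I:C) and control libraries only, and 1 down with voom.

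Between 3 and 8 h after CpG without IFNAR, 5 up and 5 down became 3 and 2 with no filter or voom, 3 up with plain eBayes, 2 and 2 without the double knockout CpG 8 h library and 3 down with CpG and control libraries only. After Poly(I:C), 1 up became 3 with either scaling, without either library of lowest depth or with Poly(I:C) and control libraries only, and 2 with voom. With IFNAR after Poly(I:C), 1 down became 2 with voom or those same library choices. The 21 steps larger after CpG became 12 with plain eBayes. For RelB with IFNAR, 18 up and 2 down became 11 and 4 with median-ratio scaling, and 1 down with no filter or plain eBayes. Without IFNAR 2 up became 1 with median-ratio scaling, and for the difference 0 up became 1 with voom or without either library of lowest depth.

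Leaving out each genotype, with the remaining libraries of its IFNAR state assumed to vary like the others, gave 3 to 8 up and 5 to 12 down at rest. Differing responses were 6 to 9 at CpG 3 h. With IFNAR, 0 to 1 fell at CpG 3 h. Without IFNAR, 2 to 6 fell at CpG 3 h, 3 to 7 rose and 2 to 6 fell at CpG 8 h, 1 to 5 rose at Poly(I:C) 3 h and 4 to 14 at Poly(I:C) 8 h. Between 3 and 8 h, 2 to 5 rose and 2 to 4 fell after CpG and 0 to 1 rose after Poly(I:C) without IFNAR, 6 to 18 rose after Poly(I:C) with it, and 3 to 21 steps were larger after CpG.

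No paired analysis was possible because each group holds 1 library and the labels carry no replicate numbers. TMM scaling and a quasi-likelihood test on counts were planned and not run, and limma voom on the recovered whole reads stands in their place. Depth limits Ifi44, Rtp4 and Phf11d without IFNAR most, and changes at 3 and 8 h rest on controls labelled 1 h.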
